A study of Drosophila melanogaster with 4 samples.

Results

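Mitochondrial ribosomal protein genes were followed in guts of female fruit flies (Drosophila melanogaster) raised with or without added manganese. Members were all genes of the deposited expression table whose current symbol starts with mRpL (large subunit) or mRpS (small subunit). This gave 72 of 13932 genes, 47 of the large and 25 of the small subunit. The current annotation also holds mRpS5, whose identifier the table does not use, so it was not analysed here. All flies were of the wild-type strain Oregon R-C and ate a chemical diet, either with no added manganese or with 5 ppm of it. On either diet 10 females and 10 males laid eggs for 5 days, and newly eclosed daughters then stayed on fresh food of that diet for another 5 days before gut RNA was taken. Each diet has 2 libraries, named B and C after the letters in the table. The labels do not say whether libraries came from separate groups of flies, so p-values reflect only how these libraries vary, and that variation may be technical.

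The mitochondrial ribosome translates the few proteins that the mitochondrial genome encodes, all of them core subunits of respiratory complexes and of the ATP synthase. Its RNAs come from the mitochondrial genome, whereas its proteins are encoded in the nucleus, made in the cytosol and imported. The small subunit reads the messenger RNA, and the large subunit forms peptide bonds and releases the chain through an exit tunnel at the inner membrane. Many members have a bacterial counterpart and share its number, and others were added during the evolution of mitochondria. In flies the ribosome is needed for growth: mutants of tko and bonsai, older names for the genes of small-subunit proteins S12 and S15, develop slowly or stay small.

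Values are RPKM, read counts scaled by transcript length and library size. Library totals recovered from the steps between low values were 24399759 to 28010953 reads, and with them 68 to 69 of 71 members in each library gave whole reads, to a tolerance of 0.05. The median member rested on 315 reads in B and 353 in C without manganese, and on 263 and 326 reads with 5 ppm. Counting alone then gives an error of 5.32% to 6.17% for a median member, and of up to 14.9% for mRpS24, the member with the fewest reads. The 4 enterocyte genes mex1, Myo31DF, nub and Myo61F summed to 902 and 880 RPKM without manganese and 890 and 911 RPKM with it. Markers of the Malpighian tubule, the excretory organ attached to the gut, summed to 44.5 and 77.8 RPKM without manganese in B and C. With 5 ppm they summed to 69.6 and 68.4 RPKM (4 genes, nearly all of it Irk2). The other markers, all low, went the other way without manganese. In B and C, Uro was at 1.37 and 0.211 RPKM, salt at 0.960 and 0.0899, and CapaR at 0.314 and 0.0416. The sum therefore does not rank the libraries by tubule RNA, and the part of these genes in the results was not tested. The no-manganese library C held RNA of eggshell genes, made by follicle cells of the ovary, with 521 RPKM summed over 12 genes, against 0.494 RPKM in the no-manganese library B and 1.59 and 3.28 RPKM in the 5 ppm libraries. Vm34Ca, a vitelline membrane gene, led with 210 RPKM in that library, whereas the chorion gene Cp15 was at 0.148 RPKM. Germ-line genes summed to 25.7 RPKM there and to between 0.421 and 1.71 RPKM in the other libraries (5 genes). Yolk and fat body genes summed to 306 and 807 RPKM without manganese in B and C, and to 198 and 454 RPKM with 5 ppm (5 genes), so both C libraries were above their B library. The part of this RNA in the results was not tested. Values without the no-manganese library C are given for the gene lists and for each named gene that it moved by over 1.5 times. In bulk RNA, a change in how many cells of a type a gut holds and a change in RNA per cell cannot be told apart.

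Without manganese, most genes of both subunits had slightly higher levels, and no single gene passed the test. Of 46 large-subunit genes tested, 45 were higher and 1 was lower, and all 25 small-subunit genes were higher (24 with median scaling or quantile normalization), where 56.4% of all 7556 tested genes were higher. The median log2 fold change, no manganese minus 5 ppm on the scale of log2(RPKM + 1), was 0.21 for the large and 0.23 for the small subunit, which are 1.16-fold and 1.17-fold. The median over all tested genes was 0.02. The diets did not overlap, both no-manganese libraries lying above both 5 ppm libraries, for 31 large-subunit and 16 small-subunit genes, against 21.7% of all tested genes. No member lay wholly below the other diet, against 15.2% of all tested genes. At an adjusted p under 0.05 (limma, Benjamini-Hochberg over all tested genes), 0 members of either subunit were called, and 0% of all genes. The smallest adjusted p among members was 0.776. At an unadjusted p under 0.05, 6 large-subunit and 4 small-subunit genes were higher and 0 were lower, where 2.89% of all genes were higher at that level and 2.95% lower. With limma-voom on the recovered reads, 0 members passed as well, with medians of 0.24 and 0.27. Under that method 3 and 2 genes were higher at an unadjusted p under 0.05, against 3.13% of all tested genes.

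**Figure D1:**
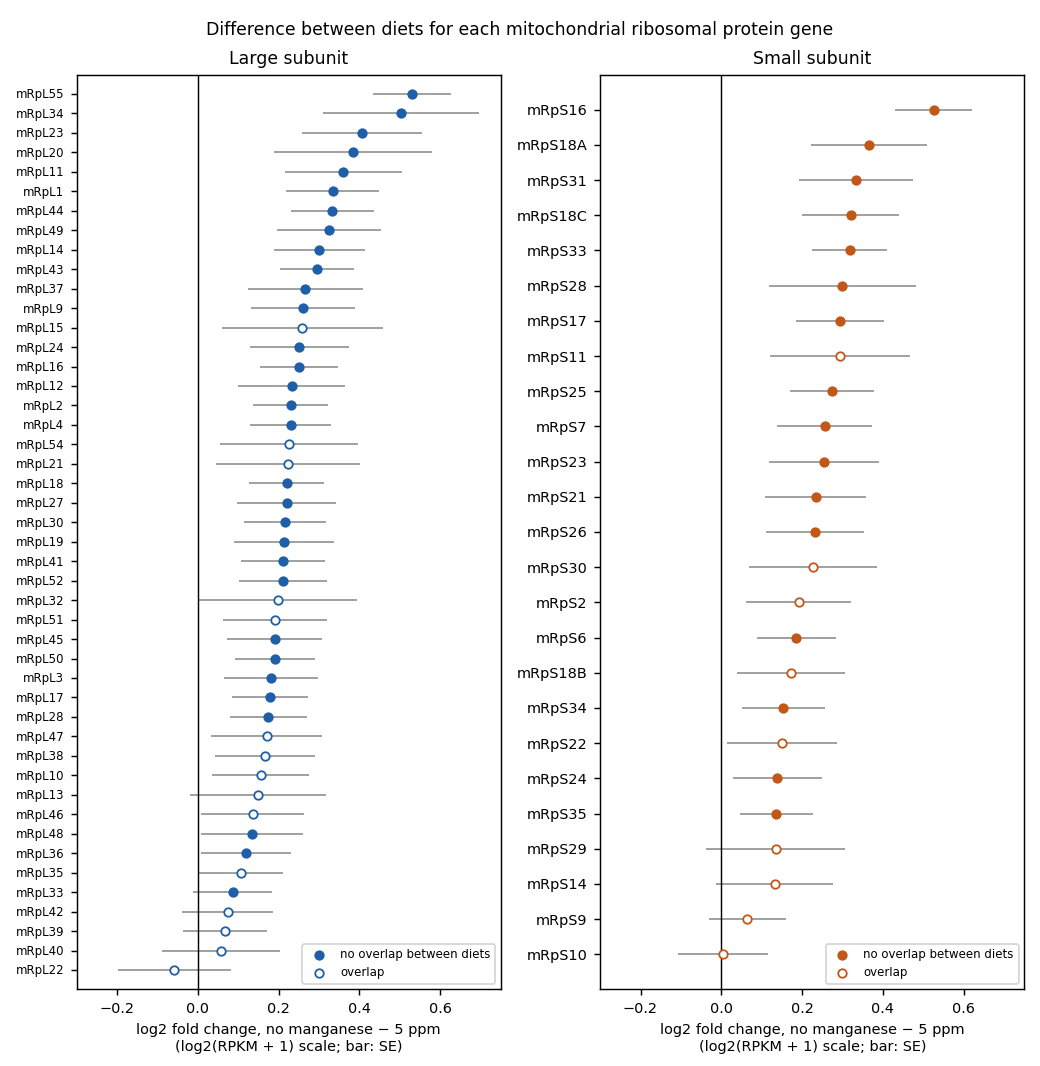
Log2 fold change of each tested member (points, no manganese minus 5 ppm, on the log2(RPKM + 1) scale) with its limma standard error (bars), sorted within the large (left, 46 genes) and small subunit (right, 25 genes), with filled points for genes whose libraries do not overlap between diets. Nearly all points lie to the right of 0, mostly between 0.1 and 0.3, with mRpL55 at 0.53 and mRpS16 at 0.53 as the highest of each panel and mRpL22 at -0.06 as the single gene below 0.

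The median shift had nearly the same size in both letters, but the libraries of a diet were not alike. Within letter B, the median member was 0.21 higher without manganese than with it, and within letter C 0.23 higher (log2 scale). Member by member, the differences in B and C hardly went together (Spearman's rho 0.11 over 71 members, which share libraries). The order of members by size was thus not the same in both letters. In 65 of 71 members the no-manganese library was the higher one in both letters, against 34.6% of all tested genes. The C library was above the B library for 56 members without manganese and for 57 members with 5 ppm, against 55.2% and 48.6% of all tested genes. The 5 ppm library B was the lowest of the 4 libraries for 56 members and the no-manganese library C the highest for 55, against 25.5% and 30.3% of all tested genes. For 20 of 71 members the 5 ppm library C was above the no-manganese library B, against 3654 of all 7556 tested genes. Relative to the mean of the 5 ppm libraries, the median large-subunit gene was at 0.14 in the no-manganese library B and 0.29 in C, and at -0.07 and 0.07 in the 5 ppm libraries B and C. The small subunit gave 0.14 and 0.32 without manganese, and -0.08 and 0.08 with it. Leaving out the no-manganese library C, the one with ovarian RNA, left 44 of 46 large-subunit and 24 of 25 small-subunit genes higher, with medians of 0.14 and 0.14. Without it, 33 and 17 genes had no overlap, against 36.6% of all tested genes when a single library is set against 2. Leaving out the no-manganese library B gave medians of 0.29 and 0.32, leaving out the 5 ppm library B gave 0.16 and 0.15, and leaving out the 5 ppm library C gave 0.26 and 0.31. In each of these fits 0 members passed, with 1 to 8 large-subunit and 1 to 6 small-subunit genes higher at an unadjusted p under 0.05 (limma), against 2.0% to 4.61% of all tested genes.

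**Figure D2:**
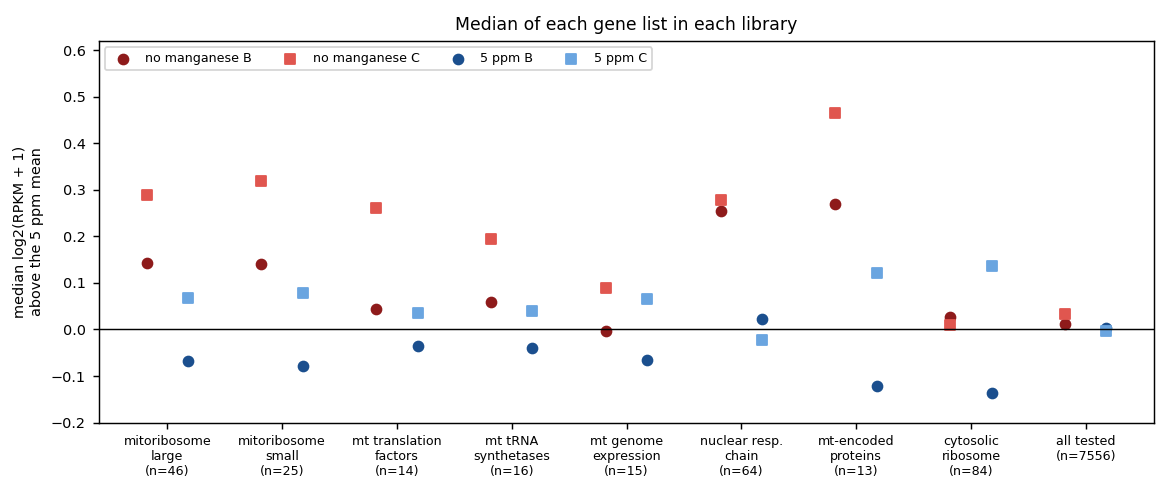
Median level of each gene list in each library (vertical axis, log2(RPKM + 1) minus the mean of the 5 ppm libraries), with no-manganese libraries in red left of the 5 ppm libraries in blue, circles for letter B and squares for letter C, and the number of tested genes under each list. Both mitochondrial ribosomal subunits show the order no manganese C, no manganese B, 5 ppm C, 5 ppm B, while the median of all tested genes stays close to 0.

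Of the 12 large-subunit genes with the smallest p-values, 4 encode proteins peculiar to mitochondria, and mRpL55 had the smallest of all. The gene mRpL55 (FBgn0038678, chromosome 3R, 19094394 to 19094905 on the minus strand of dm6, protein-coding), whose protein is found in animal mitochondrial ribosomes and is required for fly development, had 21.6 and 19.9 RPKM without manganese and 13.9 and 14.2 RPKM with it. These values are 257 and 239 reads against 155 and 181 reads, and the diets lay well apart. Its mean was 20.7 ± 1.17 RPKM without manganese and 14.1 ± 0.169 RPKM with it (SD, n = 2 each). The log2 fold change of 0.53 ± 0.10 SE had an adjusted p of 0.776 (limma) and lay between 0.48 and 0.58 when a library was left out. The gene mRpL43 had 14.7 and 14.2 RPKM without manganese and 11.5 and 11.8 RPKM with it, a difference of 0.29 ± 0.09 SE. For mRpL44, of a protein with a ribonuclease-like fold whose loss causes heart muscle disease in humans, the values were 8.63 and 8.81 RPKM without manganese and 6.36 and 7.10 RPKM with it (0.33 ± 0.10 SE). The spread within each diet was small for both genes beside the gap between diets. The gene mRpL49 had 14.9 and 15.9 RPKM without manganese, and 11.0 and 13.4 RPKM with it (0.32 ± 0.13 SE, and 0.19 without the 5 ppm library B).

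The other 8 encode proteins with bacterial counterparts. The gene mRpL1, of the protein of the mobile stalk beside the exit site for tRNA, had 14.2 and 16.2 RPKM without manganese and 11.3 and 12.4 RPKM with it (0.33 ± 0.11 SE). For mRpL2, of a protein close to the peptidyl transferase centre, the values were 16.5 and 17.1 RPKM without manganese and 13.8 and 14.6 RPKM with it (0.23 ± 0.09 SE). The gene mRpL14 stood at 16.9 and 19.7 RPKM without manganese, and at 14.6 RPKM in both 5 ppm libraries (0.30 ± 0.11 SE, and 0.20 without the no-manganese library C). All 3 were without overlap, with differences between 0.23 and 0.33. The gene mRpL16, of a protein that helps to place tRNA on the large subunit, had 13.0 and 12.1 RPKM without manganese and 10.6 and 10.1 RPKM with it (0.25 ± 0.10 SE). For mRpL18, of the central protuberance, the values were 16.3 and 15.9 RPKM without manganese and 13.3 and 14.04 RPKM with it (0.22 ± 0.09 SE). The shortest gene model of the subunit, mRpL34, with 327 exon bases, had 11.9 and 10.5 RPKM without manganese and 6.27 and 9.17 RPKM with it. Its difference of 0.50 ± 0.19 SE rested on few reads, 102 and 90 against 50 and 84, and ran from 0.26 without the 5 ppm library B to 0.74 without the 5 ppm library C.

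The gene mRpL23, of a protein at the mouth of the exit tunnel, had 13.3 and 17.3 RPKM without manganese and 11.3 and 11.1 RPKM with it, so the no-manganese library C stood apart from the other libraries. Its difference of 0.41 ± 0.15 SE was 0.23 without that library. The gene mRpL22, of a protein that lines the tunnel, was the only tested member with a negative difference, with 17.0 and 14.8 RPKM without manganese and 14.95 and 18.2 RPKM with it. The diets overlapped (-0.06 ± 0.14 SE), and its sign changed in the fits without the no-manganese library C and without the 5 ppm library C. The gene mRpL33 was the most abundant of all members at 61.2 and 58.8 RPKM without manganese, against 55.0 and 58.0 RPKM with it. That difference of 0.09 ± 0.10 SE was no larger than its error, and it was 0.048 without the 5 ppm library B.

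Genes of the 3 proteins of the stalk that recruits translation factors were higher without manganese in both letters. So were most members, 65 of 71, against 34.6% of all tested genes. The gene mRpL12, whose protein forms the stalk itself and which acts in fly tissue growth downstream of Cyclin D and Cdk4, had 26.2 and 31.6 RPKM without manganese and 23.2 and 25.6 RPKM with it (0.23 ± 0.13 SE). For mRpL11, of the stalk base, the values were 9.81 and 12.2 RPKM without manganese and 7.76 and 8.90 RPKM with it (0.36 ± 0.14 SE). The gene mRpL10, whose protein holds the stalk to the ribosome, had 18.6 and 21.5 RPKM without manganese and 16.9 and 18.8 RPKM with it (0.16 ± 0.12 SE). Its diets overlapped, while those of mRpL11 and mRpL12 did not. Without the no-manganese library C the differences were 0.10 for mRpL12, 0.21 for mRpL11 and 0.057 for mRpL10, and mRpL10 was at 0.083 without the 5 ppm library B. At the low end, mRpL48 had 5.62 and 5.53 RPKM without manganese and 4.51 and 5.51 RPKM with it (0.13 ± 0.13 SE). The low 5 ppm library B set this difference, which was 0.014 without it. The gene mRpL53 was listed at 0 in all 4 libraries and was not tested. All 829 of its exon bases are also exon bases of CG33155 on the same strand, which itself was at 0.244 and 0.282 RPKM without manganese and at 0.348 and 0.455 RPKM with it. The table therefore gives no usable level for mRpL53.

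In the small subunit the smallest p belonged to mRpS16 (FBgn0033907, chromosome 2R, 14172986 to 14173596 on the minus strand of dm6, protein-coding). Its protein binds the ribosomal RNA, and human mutations in its counterpart cause a combined respiratory chain deficiency. It had 15.7 and 15.1 RPKM without manganese and 10.7 and 10.1 RPKM with it, which are 224 and 217 reads against 143 and 154 reads. The mean was 15.4 ± 0.424 RPKM without manganese and 10.4 ± 0.470 RPKM with it (SD, n = 2 each), a 1.48-fold difference of means. The log2 fold change of 0.53 ± 0.09 SE had an adjusted p of 0.776 (limma) and lay between 0.48 and 0.57 when a library was left out. The libraries of each diet were nearly alike for this gene. The gene mRpS33, of a protein peculiar to mitochondria, had 24.9 and 26.2 RPKM without manganese and 20.5 and 20.1 RPKM with it (0.32 ± 0.09 SE). Another of that kind, mRpS25, had 13.4 and 14.8 RPKM without manganese and 11.1 and 11.9 RPKM with it (0.27 ± 0.10 SE). The gene mRpS31 had 14.6 and 17.5 RPKM without manganese and 11.5 and 13.6 RPKM with it (0.33 ± 0.14 SE, with 0.21 without the no-manganese library C and 0.22 without the 5 ppm library B). None of these genes had an overlap between diets.

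Among small-subunit genes with bacterial counterparts, mRpS17, of a protein that binds the ribosomal RNA early in assembly, had 22.2 and 24.6 RPKM without manganese and 19.7 and 18.1 RPKM with it (0.29 ± 0.11 SE). The most abundant gene of the subunit, mRpS7, whose protein organises the head of the particle, had 36.4 and 40.7 RPKM without manganese and 30.2 and 34.0 RPKM with it (0.26 ± 0.12 SE). Paralogs of S18 were measured apart. The gene mRpS18C had 9.64 and 11.1 RPKM without manganese and 7.61 and 8.59 RPKM with it (0.32 ± 0.12 SE), and mRpS18A had 19.4 and 23.5 RPKM without manganese and 15.2 and 17.6 RPKM with it (0.37 ± 0.14 SE, and 0.23 without the no-manganese library C). The remaining paralog, mRpS18B, named after its values were seen, had 10.4 and 11.9 RPKM without manganese and 8.93 and 10.7 RPKM with it. Its diets overlapped, and its difference of 0.17 ± 0.13 SE was 0.053 without the 5 ppm library B and 0.083 without the no-manganese library C. In mammals the proteins named S18A and S30 sit in the large subunit, and without these genes 23 of 23 small-subunit genes were higher, with a median of 0.23, or 0.14 without the no-manganese library C. The gene mRpS29, of a GTP-binding protein known in mammals as death-associated protein DAP3, had 8.13 and 9.66 RPKM without manganese and 6.89 and 9.25 RPKM with it. Its libraries overlapped, and its difference of 0.13 ± 0.17 SE became -0.054 without the 5 ppm library B and 0.023 without the no-manganese library C. The least abundant tested member was mRpS24, the counterpart of bacterial S3, with 3.51 and 3.61 RPKM without manganese and 3.07 and 3.21 RPKM with it (0.14 ± 0.11 SE). Of its 600 exon bases, 55.3% lie under TBC1d7 on the opposite strand, and without a stated strand setting the reads of such partners cannot be told apart.

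**Figure D3:**
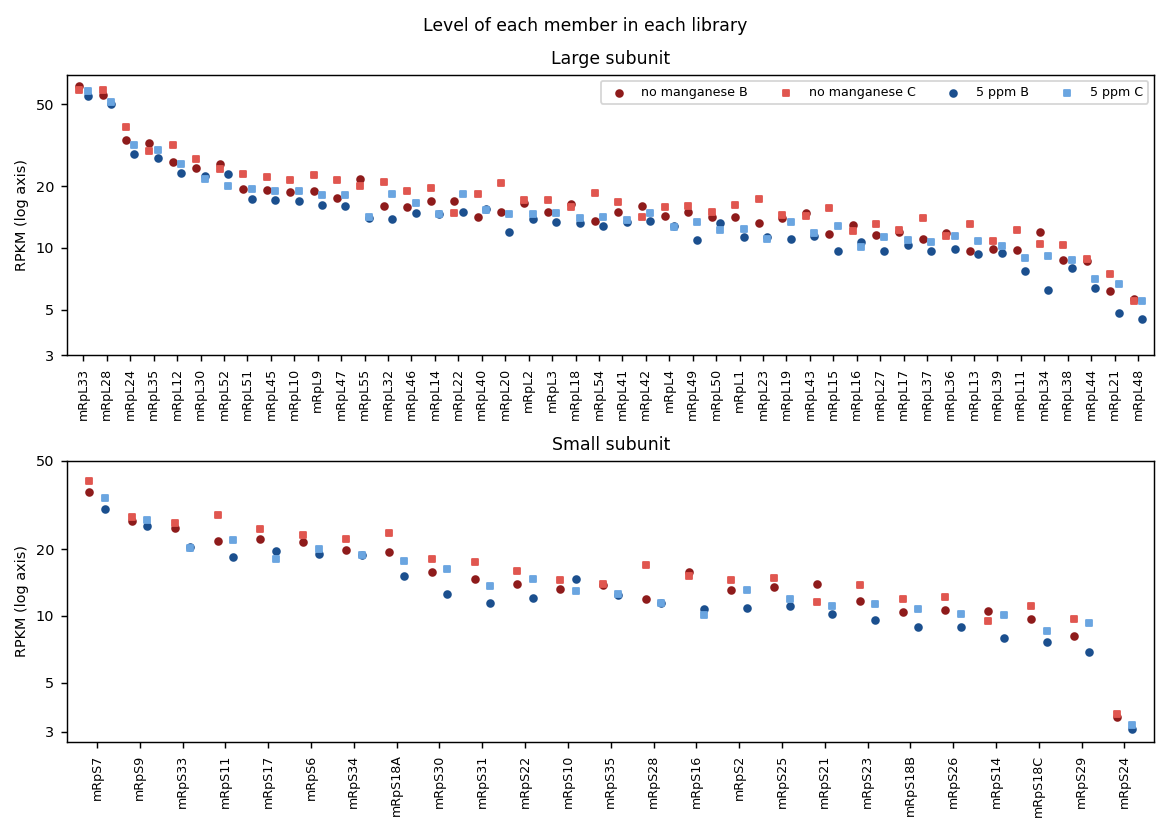
RPKM (log axis) of every tested member in each library, sorted by mean level within the large (top, 46 genes) and small subunit (bottom, 25 genes), with no-manganese libraries in red left of the 5 ppm libraries in blue, circles for letter B and squares for letter C. Most genes lie between 10 and 20 RPKM, mRpL33 and mRpL28 stand above 50, and mRpS24 lies between 3.07 and 3.61.

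Most members had similar levels, and a few stood well above or below. Mean levels per transcript length over all libraries ran from 5.30 RPKM (mRpL48) to 58.2 RPKM (mRpL33) in the large subunit, an 11.0-fold range around a median of 14.7 RPKM. In the small subunit they ran from 3.35 RPKM (mRpS24) to 35.3 RPKM (mRpS7), a 10.5-fold range around a median of 13.2 RPKM. Between 10 and 20 RPKM lay 33 of 46 large-subunit and 15 of 25 small-subunit genes. The size of the difference between diets did not follow the level (Spearman's rho -0.04 over 71 members, which share libraries). Members were also split by number, at 36 in the large subunit and 21 in the small one, which only roughly follows homology to bacterial proteins; mRpS24 was put with the lower numbers. Members with higher numbers had a median of 0.19 in the large subunit (18 genes) and 0.23 in the small one (11 genes), and those with lower numbers 0.22 (28 genes) and 0.21 (14 genes). Without the no-manganese library C the higher numbers gave 0.12 and 0.13, and the lower numbers 0.15 and 0.16. The genes are scattered over the genome, with 21 on chromosome 3R, 16 on 3L, 12 on 2L, 12 on 2R and 11 on X. The closest neighbours, mRpL3 and mRpS30 on X, are 23383 bases apart, so the members form no chromosomal cluster. Exons of 43 members overlap another gene to some extent, and those of 8 members by at least 20%. Leaving these 8 out, 63 of 64 genes were higher, against 56.4% of all tested genes, and 43 had no overlap, against 21.7%. Their median was 0.22, or 0.14 without the no-manganese library C.

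Exon length moved with the difference. Short genes were higher without manganese across the table (Spearman's rho -0.27 over 7506 genes with a gene model, which are not independent replicates), and members are short, with a median of 783 exon bases against 2024 for all tested genes. Within the members the same measure was -0.23 (71 genes). Members under the median length had a median difference of 0.23 (35 genes), and those over it 0.19 (34 genes). When the trend with exon length was removed from each library, the median was 0.12 in the large and 0.14 in the small subunit, with 41 of 46 and 24 of 25 genes higher against 49.8% of all tested genes. Without the trend 15 and 6 genes had no overlap, against 17.3% of all tested genes. At an unadjusted p under 0.05 there was 1 gene in each subunit, against 2.03% of all genes. The highest of each subunit were mRpL55 and mRpS16, both at 0.41.

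**Figure D4:**
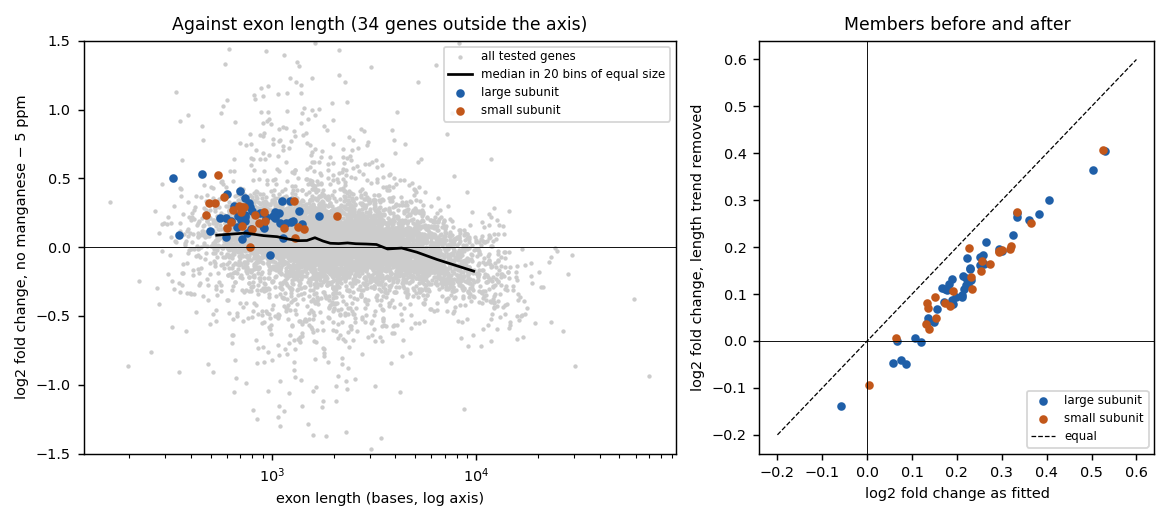
Left, log2 fold change (no manganese minus 5 ppm) against exon length in bases (log axis) for all 7506 tested genes with a gene model (grey), with the median in 20 bins of equal size (line), the members of the large (blue) and small subunit (orange), and 34 genes outside the axis; right, each member's log2 fold change as fitted and after the trend with length was removed from each library, with a dashed line of equality. The members lie mostly above the line of medians at their length on the left, and below the line of equality on the right, with mRpL55 and mRpS16 at 0.41 after removal.

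Mitoribosomal genes under older names gave similar values. The gene tko, of the decoding-site protein S12, had 12.7 and 15.5 RPKM without manganese and 11.0 and 11.7 RPKM with it (0.29 ± 0.13 SE). For bonsai, of protein S15, which is known in flies for its part in gut mitochondrial activity and body growth, the values were 23.8 and 30.3 RPKM without manganese and 21.4 and 23.8 RPKM with it (0.24 ± 0.15 SE). Both had no overlap between diets, bonsai by a narrow margin, and both were highest in the no-manganese library C. Without that library tko was at 0.15 and bonsai at 0.076. Neither passed the test (limma, adjusted p = 0.802 and 0.822).

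Other genes of mitochondrial gene expression had smaller medians, but their gene models are longer. Once the length trend was removed, the median was 0.10 for translation factors and 0.085 for tRNA synthetases, against 0.12 for all mitoribosomal genes. Without the trend 5 of 14 and 8 of 16 had no overlap, against 21 of 71 mitoribosomal genes and 17.3% of all tested genes. Genes that copy and transcribe the mitochondrial genome and handle its RNA then had a median of 0.033, with 1 of 15 without overlap. As fitted, the contrast was larger. Of 14 tested translation factors and related enzymes, 13 were higher, 8 of them with no overlap, against 56.4% and 21.7% of all tested genes. Their median was 0.17, but 0.043 without the no-manganese library C and 0.088 without the 5 ppm library B. GatA, a subunit of the enzyme that amidates glutamyl-tRNA, had 4.45 and 4.85 RPKM without manganese and 3.55 and 4.04 RPKM with it. CG6094 and CG1750 had differences of 0.19 ± 0.10 SE and 0.23 ± 0.12 SE. Of 16 mitochondrial tRNA synthetase genes, 14 were higher, 9 with no overlap, again against 56.4% and 21.7% of all tested genes. Their median was 0.11, and 0.059 without the no-manganese library C. The insect gene Slimp, a mitochondrial relative of seryl-tRNA synthetase, had 3.85 and 4.56 RPKM without manganese and 2.62 and 2.91 RPKM with it (0.46 ± 0.13 SE). The synthetase genes AsnRS-m and TrpRS-m were at 0.20 ± 0.11 SE and 0.27 ± 0.15 SE, and TrpRS-m at 0.096 without the no-manganese library C, its highest. Of 15 genes that copy and transcribe the mitochondrial genome and handle its RNA, 8 were higher and 3 had no overlap. These counts are near the shares of all tested genes, 56.4% and 21.7%. The median of this list was 0.04, but -0.0038 without the no-manganese library C and -0.027 without the 5 ppm library B. Among these, mtSSB, which coats single-stranded mitochondrial DNA, had 1.73 and 1.52 RPKM without manganese and 0.713 and 1.12 RPKM with it. Its difference of 0.46 ± 0.18 SE came at a mean of 1.27 RPKM, just above the limit of 1 RPKM for testing. TFAM, which packages mitochondrial DNA, had 12.7 and 16.7 RPKM without manganese and 12.8 RPKM in both 5 ppm libraries. Only the no-manganese library C of TFAM stood out, and its difference of 0.17 ± 0.15 SE was -0.014 without that library. The difference of mTerf3, a regulator of mitochondrial transcription and translation, was 0.10 ± 0.10 SE, and 0.048 without the no-manganese library C. The mitochondrial ribosomal RNAs were not analysed here.

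With all libraries, the median of the mitoribosomal genes, 0.22, lay between those of the respiratory chain and of the cytosolic ribosome. Nuclear genes whose symbols mark respiratory chain and ATP synthase subunits had a median difference of 0.27, with 61 of 64 higher and 57 without overlap, against 56.4% and 21.7% of all tested genes. Once the length trend was removed, their median was 0.19, against 0.12 for the mitoribosomal genes, and 52 had no overlap, against 17.3%. Without the no-manganese library C their median was 0.25, against 0.14 for the mitoribosomal genes. Without the 5 ppm library B the medians were 0.29 and 0.15. The order of these lists turned round when another library was left out. Respiratory chain and mitoribosomal medians were 0.28 and 0.29 without the no-manganese library B, and 0.24 and 0.29 without the 5 ppm library C. Of 13 genes encoded in mitochondria 12 were higher and 8 had no overlap, against 56.4% and 21.7% of all tested genes. Their median was 0.37, or 0.27 without the no-manganese library C and 0.18 without the 5 ppm library B. Once the length trend was removed, it was 0.28, and 6 genes had no overlap, against 17.3%. Cytosolic ribosomal protein genes had a median of 0.02, with 61 of 84 higher and 1 without overlap, but -0.07 with 12 higher once the length trend was removed. Their median was 0.027 without the no-manganese library C, -0.11 without the 5 ppm library B and 0.15 without the 5 ppm library C. At an adjusted p under 0.05 (limma), 0 genes of any of these lists passed, and 24 respiratory chain genes, 3 genes encoded in mitochondria and 0 cytosolic ribosomal genes were higher at an unadjusted p under 0.05, against 2.89% of all tested genes. The cytosolic genes' median difference was 0.16 within letter B and -0.12 within letter C, while the mitoribosomal genes were at 0.21 and 0.23. The respiratory chain genes did not show the order of letters seen in the mitoribosome: the median difference of library C minus B was 0.03 without manganese and -0.05 with it, against 0.16 and 0.14 for the mitoribosomal genes. These contrasts between lists were not tested. With 2 libraries a diet and standard errors of 0.09 or more for the named members, differences of this size could not be called for single genes.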

How the data were processed

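The authors deposited RPKM values for 13932 FlyBase genes in 4 libraries. Per the submitters' processing notes the tools were STAR 2.5.2b and DESeq2 and the build dm6, with no roles; the counter, strand setting and annotation were not given in the sources used here. Column names give the diet and a letter, so columns were assigned to diets and not to numbered samples. Symbols, positions and exon lengths came from Ensembl 115 (BDGP6, dm6 coordinates); 13852 identifiers had a symbol. Reads were recovered from RPKM times exon length: among values below 20 reads, 84.5% to 85.5% were whole to a tolerance of 0.02. Genes with a mean of at least 1 RPKM (7556) were tested on the log2(RPKM + 1) scale with limma 3.58.1 (R 4.3.3) and a trend in the prior variance, 2-sided, Benjamini-Hochberg over all of them, threshold 0.05. The fold change understates low genes. The fit was tested on simulated data. The exon-length trend was removed by lowess (span 0.3). Intervals of counting cover counting error only.

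Members and lists were chosen with earlier results of these data known. Named genes are the 12 large-subunit and 8 small-subunit members with the smallest p, negative members, those of extreme level, untested ones, mRpL10, mRpL11, mRpL12, mRpL55, mRpS16 and mRpS29, and 3 per related list. Of the related genes written, 7 matched no symbol in the table. mRpL28, mRpL3 and mRpS30 were named after their values were seen. Alternatives were other pseudocounts, filters, scalings, no variance trend, a letter block, voom on recovered reads, the removed length trend and each library left out.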

Additional observations from a re-analysis of the deposited data

How the results depend on the processing

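Under the 14 alternatives run, 0 members of either subunit passed the threshold, and both medians stayed above 0. With the length trend removed, the large-subunit median was 0.12 and the small-subunit median 0.14. The genes without overlap then numbered 15 and 6, against 17.3% of all tested genes. Without each library in turn, the medians ran from 0.14 to 0.29 and from 0.14 to 0.32, and the genes without overlap from 31 to 44 and from 17 to 24, against 36.6% to 40.4% of all tested genes, where a single library against 2 overlaps less often by construction. Most of the 27 named members were chosen for a small p, which favours a stable sign. Filters, the variance trend and the letter block cannot change a fold change. Of 377 comparisons over these members, 373 kept direction and side of the threshold. The 4 others changed sign: mRpL33 to -0.048 with the length trend removed, mRpL22 to 0.077 without the 5 ppm library C and to 0.036 without the no-manganese library C, and mRpS29 to -0.054 without the 5 ppm library B; over the libraries left out, mRpL22 ran from -0.193 to 0.077. Among all tested members, 4 of 46 large-subunit and 3 of 25 small-subunit genes had differences of both signs over the fits with a library left out. The cause was not tested.

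With the letters as a replicate block, the medians are 0.21 and 0.23 by construction, since the block leaves each fold change as it is. Again 0 members passed, and the smallest adjusted p was 0.243 (limma). At an unadjusted p under 0.05, 16 and 11 members were higher, against 5.9% of all genes. Same-letter libraries deviated from their diet's mean together (correlation 0.34 across genes), but no source ties the letters to a shared origin. Over all genes, 11 passed without the no-manganese library B and 5 without C, none of them members. A correction for GC content was not run, since no genome sequence was used here.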
